A study of Homo sapiens with 36 samples.

Results

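YAP was knocked down in Src-transformed mammary epithelial cells, and the messenger RNA of these cells was compared with that of transformed cells given a control small interfering RNA (siRNA). The libraries were chosen by their labels: MCF-10A ER-Src cells under tamoxifen with the siRNA against YAP (YAPi_TAM, n = 2) or with the control siRNA (Ctrli_TAM, n = 2), 4 of the 36 libraries of the series. MCF-10A is a non-tumorigenic human breast epithelial line. Its ER-Src derivative carries the v-Src oncoprotein joined to the hormone-binding part of the estrogen receptor, and tamoxifen activates the fusion. Tamoxifen was used at 0.4 to 1 µM. Per the methods, cells transfected with siRNA were split a day later and then received both tamoxifen and AZD0530, an inhibitor of Src family kinases. A short and a long treatment are given there, and which of them these RNA libraries follow is not stated. All groups were grown in the same medium with EGF, hydrocortisone, cholera toxin and insulin. The same siRNAs were given with ethanol, the vehicle, to cells labelled non-transformed (YAPi_ETH and Ctrli_ETH, n = 2 each), and an siRNA against TAZ was given under tamoxifen (TAZi_TAM, n = 2). These further groups were used only to show where the YAP knockdown under tamoxifen differs. All are 1 cell line, and nothing in the labels says that the replicates were separate cultures, so p-values measure the spread between these libraries, which may be technical.

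YAP, encoded by YAP1, and its paralog TAZ, encoded by WWTR1, are transcriptional co-activators that do not bind DNA themselves. They are recruited by sequence-specific factors, above all the TEAD family, often at sites shared with AP-1 (JUN and FOS) dimers. The LATS kinases of the Hippo pathway phosphorylate both proteins and keep them in the cytoplasm. In stratified and glandular epithelia YAP is known for sustaining the division of progenitor cells and for holding back their terminal differentiation.

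The oligonucleotide that the study lists for YAP1 is shown with its place in the target gene. The capitals mark the bases that match the YAP1 messenger RNA, which are all 19.
YAP1 siRNA, sense strand: GACAUCUUCUGGUCAGAGA
The match lies at chr11:102114365-102114383 (GRCh38, plus strand), within the coding part of exon 2 of YAP1, and it is present in 8 annotated YAP1 transcripts. The only other annotated transcript with a full match was the processed pseudogene YAP1P1 on chromosome 6. The methods describe the siRNAs as a purchased pool, and the study's list gives this single oligonucleotide beside the pool's catalogue entry. The pool's sequences are not shown here, so the match above covers the listed oligonucleotide and not every siRNA the cells may have received.

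Depth was 10275885 and 6419720 expected counts in the Ctrli_TAM libraries and 12014017 and 17468587 in the YAPi_TAM libraries. The replicates of each group differed by more than counting noise, and their log2 ratios had an SD of 0.245 over genes in Ctrli_TAM and 0.244 in YAPi_TAM. Ribosomal RNA took 0.868% and 0.918% of the counts in Ctrli_TAM but 0.0315% and 0.00739% in YAPi_TAM, so remaining ribosomal RNA moved with the siRNA. Its part in the other results was not tested beyond a fit without those genes, which called 1529 genes against 1552 with them. Markers of basal mammary cells were present in all 4 libraries, with KRT5 at 1336 and 1198 TPM in Ctrli_TAM and 1012 and 1052 TPM in YAPi_TAM. TPM is a level corrected for gene length and depth. The basal list summed to 2928 and 2747 TPM in Ctrli_TAM and to 2853 and 3117 TPM in YAPi_TAM. Of its 10 tested members 3 were called higher and 2 lower, against 5.4% and 5.54% of all genes tested. The leukocyte markers PTPRC and CD3E were listed at 0 in all 4 libraries. The leukocyte list summed to 21.4 and 19.02 TPM in Ctrli_TAM and to 29 and 23.9 TPM in YAPi_TAM, mostly CD68 and CD14, and its CSF1R rose from 0.43 and 0.14 TPM to 1.26 and 0.94 TPM (log2 change 2.23). Luminal hormone-sensing markers summed to 207 and 123 TPM against 128 and 115 TPM, with PGR listed at 0 throughout and none called. Nearly all of this sum was ESR1, the estrogen receptor gene. The ER-Src fusion carries the hormone-binding part of that receptor, so its reads cannot be told apart from those of ESR1 here. The sum therefore cannot be read as a luminal marker level. The fibroblast list summed to 77.2 and 74.95 TPM against 269 and 211 TPM, nearly all of it DCN, and the endothelial list stayed at or below 0.91 TPM. The part of these markers in the results was not tested.

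The siRNA lowered its target. YAP1 stood at 29.8 and 28.9 TPM in Ctrli_TAM and at 5.74 and 4.31 TPM in YAPi_TAM, and the groups did not overlap. The change was -2.49 on the log2 scale (SE 0.14, DESeq2 adjusted p = 2.4e-70), a 5.63-fold decrease. WWTR1, the gene of TAZ, stood at 6.59 and 6.44 TPM in Ctrli_TAM and at 5.04 and 5.11 TPM in YAPi_TAM, a log2 change of -0.18 (SE 0.19, adjusted p = 0.63). The YAP1 decrease was of like size under ethanol (-2.38), and the difference between the treatments was -0.13 (SE 0.18).

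Across the genome 1552 of 14182 genes tested were called at an adjusted p under 0.01, which is 10.9%. Of these 766 rose (5.4% of those tested) and 786 fell (5.54%), and 333 rose and 294 fell at least 2-fold. The median change over all genes tested was 0.01 on the log2 scale. edgeR's quasi-likelihood test called 1344 genes, 1175 of them shared with DESeq2. With 2 libraries a group the count rests on each of them: leaving out 1 library left between 431 and 814 calls, although all 1552 genes kept their direction in each of these fits. Groups that did not overlap were common, at 68% of genes tested, so a lack of overlap alone says little about any 1 gene.

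**Figure D1:**
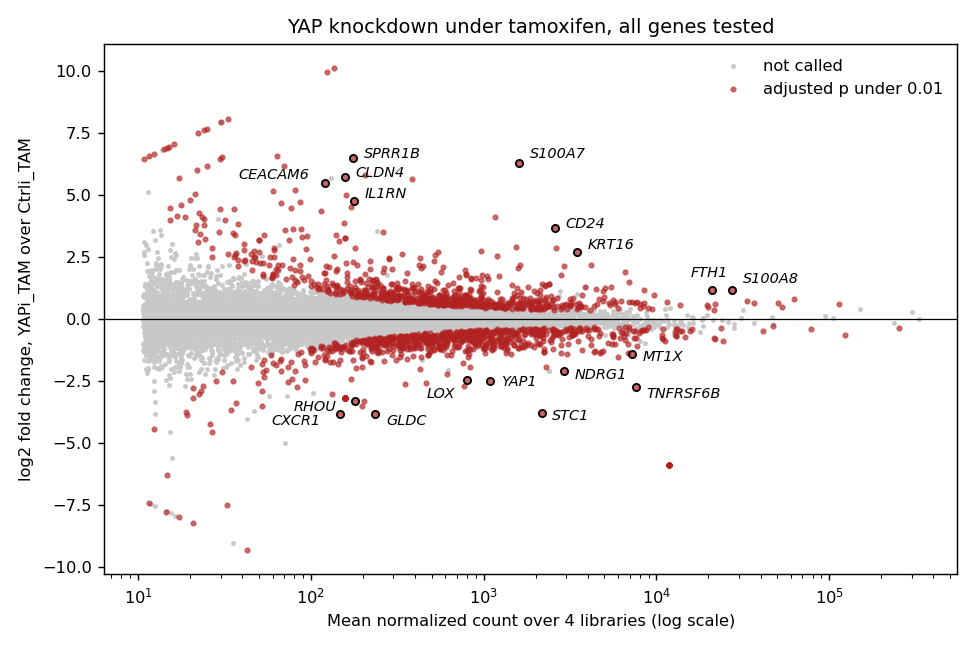
Log2 fold change of YAPi_TAM over Ctrli_TAM (vertical axis) against the mean normalized count of the 4 libraries (horizontal axis, log scale), 1 point per gene tested. Red points are called genes. Among the labelled genes SPRR1B and S100A7 are the highest and STC1, GLDC and CXCR1 the lowest. Changes of genes listed at 0 in both control libraries depend on the fit.

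When genes averaging under 100 normalized counts were set aside, the 12 called genes that rose most included secreted, surface and envelope proteins. S100A7, the antimicrobial protein psoriasin, stood at 3.86 and 3.98 TPM in Ctrli_TAM and at 481 and 146 TPM in YAPi_TAM, a log2 change of 6.27 (SE 0.78, adjusted p = 1.2e-13). CLDN4, a tight junction claudin, was at 0.12 and 0.11 TPM against 6.59 and 6.39 TPM, a log2 change of 5.70 (SE 0.55). CEACAM6, a surface adhesion glycoprotein, was at 0.06 and 0.09 TPM against 3.45 and 3.30 TPM. These genes were ranked by their change among called genes without overlap between groups, so the gap between the groups is part of the choice. CLDN4 and CEACAM6, very low in the controls, could reach a mean of 100 counts only through the knockdown libraries. The same holds for A2ML1 and ADGRF1, named below, whose mean normalized counts were 386.4 and 158.8, and it may hold for more of the 12. Others of the 12 that rose most were A2ML1, an epidermal protease inhibitor (log2 change 5.65), AZGP1, a secreted zinc-binding glycoprotein (5.79), IL1RN, the interleukin-1 receptor antagonist (4.73), SLC6A14, an amino acid transporter (4.52), CRABP2, a retinoic acid binding protein (4.33), ADGRF1, an adhesion G protein-coupled receptor (4.97), and SERPINB2, a serpin (4.09). SERPINB2 differed between the knockdown libraries, at 27.4 and 64.8 TPM, and both were above the controls at 3.43 and 2.77 TPM.

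**Figure D2:**
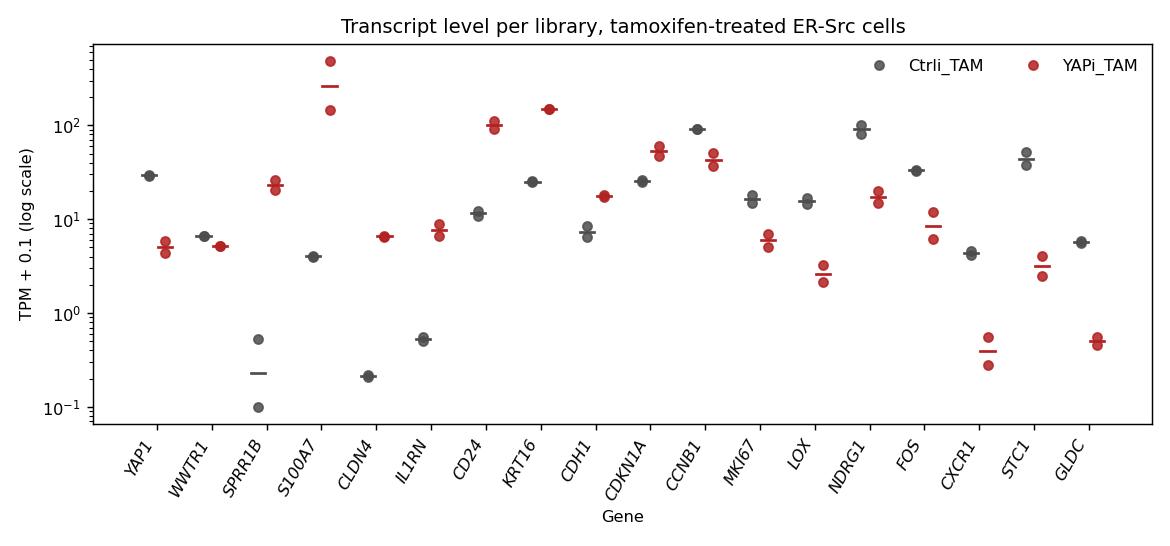
Transcript level (TPM + 0.1, log scale) of 18 genes in each Ctrli_TAM (grey) and YAPi_TAM (red) library; points are libraries and bars the mean of the 2 logged values. YAP1 and the genes from CCNB1 to the right are lower in both knockdown libraries, the genes from SPRR1B to CDKN1A are higher in both, and WWTR1 was not called.

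The cornified envelope, the cross-linked protein shell of terminally differentiated keratinocytes, had genes that were near 0 in the controls and counted after knockdown. Of its 26 genes 23 had counts and 16 were tested, of which 12 rose and 4 were not called (TGM1, EVPL, FLG and HRNR). Of the 12, 7 had 3 or fewer counts over both controls, so they passed the filter on low counts only through the knockdown libraries and had to differ. The counts and the median of the 16, 5.90 on the log2 scale or 4.41 with the genes listed at 0 in the controls set to the bound that 3 counts allow, are therefore a description. SPRR1B, a small proline-rich envelope precursor, stood at 0.43 and 0 TPM in Ctrli_TAM and at 26.2 and 20.4 TPM in YAPi_TAM. SPRR2D was listed at 0 in both controls and at 16.5 and 13.4 TPM after knockdown, which makes it at least 125-fold higher against a floor of 3 counts over the control group. IVL, which encodes involucrin, was likewise at 0 in both controls and at 1.14 and 1.23 TPM, at least 34.1-fold higher. SPRR1A was at least 31-fold and SPRR3 at least 11-fold higher on the same reckoning. Members of the SPRR family are close in sequence, so the division of reads among them is uncertain. Genes with a measurable control level rose less: SBSN, suprabasin, by 3.86 on the log2 scale, PPL, the desmosome-linked periplakin, by 1.75, and CSTA, cystatin A, by 1.23. LORICRIN was listed at 0 in all 4 libraries, so the list did not rise as a whole. The number called was 7 to 10 when 1 library was left out.

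Promoters of these genes are printed because the genes moved together and because AP-1 sites are where YAP and TAZ are known to act. Sequences are the 250 bases before the RefSeq start (GRCh38.p14), and capitals mark TGANTCA, the AP-1 consensus, in which N is any base.
SPRR1B, chr1:153030953-153031202, plus strand: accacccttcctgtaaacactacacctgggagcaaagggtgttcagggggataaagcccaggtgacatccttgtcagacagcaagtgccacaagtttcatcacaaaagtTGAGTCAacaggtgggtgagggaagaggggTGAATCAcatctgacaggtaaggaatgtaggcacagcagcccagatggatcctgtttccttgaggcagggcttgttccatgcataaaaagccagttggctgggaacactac
SPRR3, chr1:153001499-153001748, plus strand: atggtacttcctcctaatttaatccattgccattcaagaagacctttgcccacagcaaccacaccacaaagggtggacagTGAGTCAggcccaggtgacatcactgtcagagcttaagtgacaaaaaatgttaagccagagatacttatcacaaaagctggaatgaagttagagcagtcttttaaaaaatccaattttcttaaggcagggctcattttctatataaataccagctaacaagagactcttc
IVL, chr1:152908296-152908545, plus strand: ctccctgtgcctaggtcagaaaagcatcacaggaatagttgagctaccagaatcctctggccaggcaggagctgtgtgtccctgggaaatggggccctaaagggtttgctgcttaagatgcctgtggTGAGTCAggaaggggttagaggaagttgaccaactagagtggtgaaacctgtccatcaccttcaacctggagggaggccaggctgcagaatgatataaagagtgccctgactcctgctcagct
The SPRR1B window holds the consensus at 141 and 111 bases before the start, that of SPRR3 at 170 and that of IVL at 123. Of the 26 cornified envelope genes 20 had a promoter in the RefSeq table, and 11 of these (55%) held TGANTCA. The share was 3.99% of 10262 promoters of tested genes, 10.2% of the 579 promoters of genes that rose and 2.26% of the 574 of genes that fell. The 20 include promoters of genes that were not tested, and over all 27305 promoters the share was 6.6%. GGAATG, the TEAD motif, searched on both strands, was in 35% of the cornified envelope promoters and 11.9% of all promoters. It was in 9.35% of those of tested genes, 10.4% of those that rose and 6.62% of those that fell. These are counts of letters in a fixed window, and no binding was measured here.

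Genes of cell adhesion and epithelial identity were mixed, with more of them higher than lower. Of 19 tested desmosome and tight junction genes 10 rose, 1 fell and 8 were not called. Among all genes tested 5.4% were called higher and 5.54% lower. Among those that rose was DSC2, desmocollin 2, at 2.20 and 2.02 TPM in Ctrli_TAM and 8.2 and 8.23 TPM in YAPi_TAM (log2 change 1.95, SE 0.17). CLDN1, a claudin, rose by 1.82 and DSG3, desmoglein 3, by 1.20, while PKP2, the desmosomal plakophilin 2, fell by 0.69. CDH1, the epithelial cadherin, stood at 8.40 and 6.31 TPM in the controls and at 17.8 and 17.3 TPM after knockdown (log2 change 1.58, SE 0.17, adjusted p = 4.9e-19). EPCAM, the epithelial cell adhesion molecule, went the other way, from 10.9 and 10.7 TPM to 5.79 and 5.24 TPM (log2 change -1.07, SE 0.22). Among 15 tested epithelial transcription factors 6 rose, none fell and 9 were not called. EHF, an epithelial ETS factor, rose from 0.98 and 0.70 TPM to 7.46 and 5.99 TPM (log2 change 3.49), ELF3 from 5.05 and 4.77 TPM to 28.02 and 11.9 TPM, and KLF4, a factor of barrier formation, by 2.26 on the log2 scale. ZNF750, a factor of epidermal differentiation, was at 0 in both controls and at least 16.3-fold higher. OVOL1 had 2 counts in the controls and 100 after knockdown, a ratio of 27.5 with a 95% counting interval of 7.41 to 230. ZNF750 and OVOL1 passed the filter on low counts only through the knockdown libraries and had to differ. The count of 6 factors that rose is therefore in part a description. TP63 and GRHL1, by contrast, were not called (log2 changes 0.61 and 0.63). In fits without 1 library 1 to 4 members of the factor list and 4 to 6 of the junction list were called.

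Keratins moved in both directions. For this list and the S100 list, the shares over all genes tested were 5.4% called higher and 5.54% lower. KRT16, a keratin of activated and hyperproliferative epidermis, stood at 25.5 and 24.6 TPM in Ctrli_TAM and at 148 and 148 TPM in YAPi_TAM (log2 change 2.68, SE 0.12, adjusted p = 4.6e-98). KRT6C rose by 2.68 and KRT6B by 2.13 on the log2 scale, though reads are divided between the near-identical KRT6 genes. KRT14, the basal-layer keratin, fell from 221 and 217 TPM to 68.5 and 83.3 TPM (log2 change -1.55, SE 0.14). In all 6 of 16 tested keratins rose and 3 fell, with 5 to 7 of the list called without 1 library. Of 14 tested S100 genes 9 rose and none fell (3 to 8 called without 1 library), including S100A8, a subunit of calprotectin and one of the most abundant messenger RNAs here, which went from 1441 and 1368 TPM to 3830 and 2621 TPM. CD24, a surface glycoprotein used to separate mammary cell states, stood at 12.1 and 10.8 TPM in the controls and at 111 and 90.3 TPM after knockdown (log2 change 3.67, SE 0.13, adjusted p = 8.3e-185). CD44, its usual counterpart, fell by 0.50 (SE 0.11).

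Mitotic genes fell almost without exception. Of 34 mitosis genes, all tested, 33 fell, none rose and BUB3 was not called (log2 change -0.35), against 5.54% called lower among all genes. The median was -0.99. CCNB1, the mitotic cyclin B1, stood at 91.0 and 91.5 TPM in Ctrli_TAM and at 50.0 and 36.3 TPM in YAPi_TAM (log2 change -1.07, SE 0.14, adjusted p = 8.5e-12). MKI67, the proliferation marker Ki-67, was at 18.03 and 14.7 TPM against 6.87 and 5.00 TPM (log2 change -1.38, SE 0.35). KIF2C, a microtubule depolymerase of the centromere, was at 16.95 and 16.8 TPM against 8.79 and 5.37 TPM. In each of these genes the second YAPi_TAM library lay below the first, and summed over the list the levels were 921 and 875 TPM in the controls and 539 and 380 TPM after knockdown. Without the second YAPi_TAM library 12 of the list were called with a median of -0.76, as against 28 with a median of -1.14 without the first; without either control library 12 were called. All 34 genes were lower in both knockdown libraries than in both controls, where 68% of all genes tested had groups without overlap in either direction.

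Of 35 DNA replication and E2F target genes 9 fell, none rose and 26 were not called, with a median of -0.33. For this and the other lists of this paragraph, 5.4% of all genes tested were called higher and 5.54% lower. The difference between the replication and mitosis lists was not tested. TK1, thymidine kinase 1, fell by 1.22 and TYMS, thymidylate synthase, by 1.23 on the log2 scale, and MCM7, a subunit of the replicative helicase, by 0.77. Without 1 library 1 to 5 genes of the list were called. Replication-dependent histones, whose messages are made in S phase and carry no poly(A) tail, fell in 16 of 19 genes tested, with none higher and a median of -0.90, and 9 to 16 of the list were called without 1 library. H1-4 was at 214.5 and 251 TPM in Ctrli_TAM and at 107 and 72.7 TPM in YAPi_TAM (log2 change -1.41, SE 0.16). Histone genes are near-identical copies, so the share of each is uncertain. Among the regulators of the G1 phase, CDKN1A, the CDK inhibitor p21, rose from 24.8 and 25.8 TPM to 47.4 and 60.02 TPM (log2 change 1.17, SE 0.17, adjusted p = 2.8e-10). CCND1 and CCND2, the D-type cyclins, rose by 1.29 and 1.51. The p53 target list, which holds CDKN1A, had 7 genes higher and 2 lower (DDB2 and FDXR) of 22 tested, with 2 to 3 called without 1 library.

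CCNB2 and PLK1 are shown for the fallen group, with capitals on CCAAT (bound by NF-Y) and TTTGAA, the cell-cycle homology region known from genes of the G2 and M phases. Both motifs were searched on both strands.
CCNB2, chr15:59104896-59105145, plus strand: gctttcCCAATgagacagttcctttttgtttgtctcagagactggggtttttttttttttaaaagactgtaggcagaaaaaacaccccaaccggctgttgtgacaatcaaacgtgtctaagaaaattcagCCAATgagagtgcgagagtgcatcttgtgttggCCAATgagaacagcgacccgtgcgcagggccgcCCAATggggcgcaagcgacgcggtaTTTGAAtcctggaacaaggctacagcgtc
PLK1, chr16:23678639-23678888, plus strand: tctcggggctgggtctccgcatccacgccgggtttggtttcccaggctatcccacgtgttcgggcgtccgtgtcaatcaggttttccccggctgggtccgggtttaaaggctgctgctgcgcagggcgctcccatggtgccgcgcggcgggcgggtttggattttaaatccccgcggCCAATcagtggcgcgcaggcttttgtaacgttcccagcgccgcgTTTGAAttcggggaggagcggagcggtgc
TTTGAA begins 29 bases before the start in both. Of the 27 mitosis genes with a promoter in the table, 74.1% held CCAAT and 48.1% held TTTGAA, against 35.6% and 8.69% of the promoters of tested genes. The promoters of genes that fell held them in 49.3% and 17.8%, and those of genes that rose in 34.5% and 10%. None of the 27 mitosis promoters held TGANTCA in this window. The share over promoters of tested genes was 3.99%, so none of 27 is near it.

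**Figure D3:**
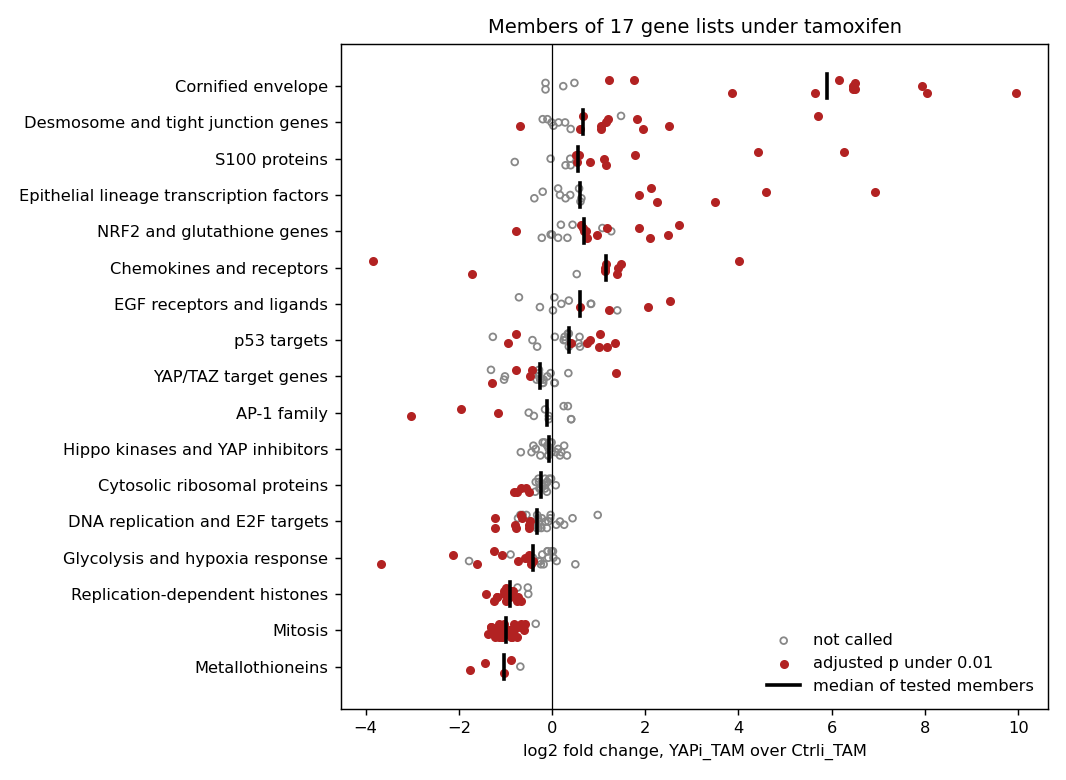
Log2 fold change of YAPi_TAM over Ctrli_TAM (horizontal axis) for the tested members of 17 gene lists (rows); filled red points were called, open points were not, and black bars are medians. The cornified envelope lies to the right with a median of 5.90 and mitosis to the left with a median of -0.99; values of genes listed at 0 in both controls depend on the fit.

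Of 22 YAP/TAZ target genes 4 fell, 1 rose and 17 were not called, which is 22.7% called against 10.9% of all genes tested. The median was -0.26, and 18 of the 22 values were negative. Without 1 library 2 to 3 were called. CCN1, a matrix-associated signalling protein, stood at 14.5 and 15.2 TPM in Ctrli_TAM and at 5.77 and 4.95 TPM in YAPi_TAM (log2 change -1.29, SE 0.18, adjusted p = 4.8e-11). CCDC80 fell by 0.78, the receptor kinase AXL by 0.47 and MYOF by 0.43, while F3, tissue factor, rose from 33.6 and 27.7 TPM to 70.7 and 76.5 TPM. CCN2 was low, at 1.34 and 1.27 TPM against 0.62 and 0.66 TPM, and was not called (log2 change -1.03, SE 0.44, adjusted p = 0.094). None of 22 tested Hippo kinases and YAP inhibitors was called by DESeq2, and on the whole list 3 had an unadjusted DESeq2 p under 0.05. Over the whole fit 3870 genes did, including any that were given no adjusted p. edgeR called 1 of the Hippo list, MOB1B, a co-activator of the LATS kinases (log2 change -0.67, SE 0.21). Of the TEAD and VGLL partners TEAD2 fell by 0.98 (SE 0.25), and TEAD1 was at -0.25 (SE 0.18).

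Among AP-1 genes FOS stood at 32.7 and 33.5 TPM in Ctrli_TAM and at 11.8 and 5.98 TPM in YAPi_TAM (log2 change -1.95, SE 0.21, adjusted p = 4.6e-19). BATF3, a bZIP partner of JUN proteins, was at 13.4 and 10.8 TPM against 2.40 and 1.24 TPM (log2 change -3.02, SE 0.37). ATF3 fell by 1.16. These were the only 3 called of 12 tested, where 10.9% of all genes tested were called. JUN (0.41, SE 0.23) and JUNB (-0.39, SE 0.16) were not called. On the gp130 and STAT3 axis IL6R, the interleukin-6 receptor, rose by 1.88, IL6ST, gp130, by 0.56 and JAK1 by 0.46, while SOCS3, a feedback inhibitor of this pathway, fell by 0.51. STAT3 itself was at 0.26 (SE 0.13, adjusted p = 0.19). IL6 had 3 counts in the controls and 12 after knockdown, a ratio of 2.2 with a counting interval of 0.593 to 12.1.

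Several secreted ligands rose, while both receptors on the chemokine list that were called fell. Of all genes tested 5.4% were called higher and 5.54% lower. Of 11 tested chemokines and receptors 7 rose and 2 fell, with 5 to 7 of the list called without 1 library. CCL20 was at 66.8 and 57.9 TPM in the controls and at 176 and 153 TPM after knockdown (log2 change 1.41), and the neutrophil attractants CXCL1, CXCL2 and CXCL8 rose by 1.40, 1.13 and 1.15. The 2 that fell were the receptors for these attractants, CXCR1 from 4.46 and 4.01 TPM to 0.46 and 0.18 TPM (log2 change -3.84, SE 0.38) and CXCR2 by 1.72. Of 9 tested IL-1 and IL-36 family genes 4 rose and 2 fell, and ligands and receptors were found in both directions. IL1A rose by 1.72 on the log2 scale, and the receptors IL1R1 and IL1R2 rose by 1.32 and 0.82. The ligand IL33 had a change of -2.91, and the receptor chain IL1RAP fell by 1.00. Of the EGF family ligands EPGN rose by 2.53, HBEGF by 2.06 and EREG by 1.22, and EGFR was at 0.02 (SE 0.17).

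Stress and metabolic groups also split by direction. Their counts stand against 5.4% of all genes tested called higher and 5.54% called lower. Of 21 tested NRF2 and glutathione genes 11 rose and 1 fell (TKT, transketolase). FTH1, the ferritin heavy chain, stood at 638 and 618 TPM in the controls and at 1530 and 1349 TPM after knockdown (log2 change 1.17, SE 0.09), and the aldo-keto reductase AKR1C1 rose by 2.72 and HMOX1, heme oxygenase, by 1.86. Reads can be shared among the AKR1C copies. Of 27 glycolysis and hypoxia genes 11 fell and none rose. NDRG1, a stress-responsive gene, was at 102 and 80.4 TPM against 19.7 and 14.8 TPM (log2 change -2.12, SE 0.12, adjusted p = 1.5e-70), and EGLN3, a HIF prolyl hydroxylase, fell by 3.66, HK2 by 1.08 and PDK1 by 1.24. SLC2A1, the glucose transporter GLUT1, was not called (0.50, SE 0.20). Metallothioneins fell in 4 of 5 genes tested, with MT2A at 2915 and 3045 TPM in the controls and 1809 and 1434 TPM after knockdown. Without 1 library 2 to 7 genes of the hypoxia list, 4 to 13 of the NRF2 list and 4 metallothioneins were called.

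Matrix and invasion genes were divided. LOX, the collagen cross-linking enzyme, stood at 16.9 and 14.2 TPM in Ctrli_TAM and at 3.13 and 2.03 TPM in YAPi_TAM (log2 change -2.46, SE 0.18, adjusted p = 7.5e-40). LOXL2 fell by 1.12, the matrix glycoprotein TNC by 1.22 and the actin-binding TAGLN by 1.86. FN1, fibronectin, rose by 0.95 and CDH2, the mesenchymal cadherin, was at -0.18 (SE 0.23). ADAM19, a membrane metalloprotease, fell from 3.52 and 2.64 TPM to 0.46 and 0.14 TPM. DCN, the proteoglycan decorin and a fibroblast marker, rose from 67.3 and 64.4 TPM to 259 and 203 TPM, whereas COL1A1 stayed at or below 0.23 TPM and COL1A2 at or below 0.1 TPM in all 4 libraries. In bulk RNA a change in the number of cells of a state and a change in RNA per cell cannot be told apart.

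The genes that fell most included ribosomal RNA copies. The 5.8S genes RNA5-8SN1, RNA5-8SN2 and RNA5-8SN3 and an unnumbered copy had identical values, a log2 change of -5.91 (SE 1.01), and the 5S copies RNA5S1 and RNA5S10 both -3.18. The division of reads among such copies is uncertain. GLDC, the glycine decarboxylase of mitochondria, was at 5.70 and 5.47 TPM in Ctrli_TAM and at 0.45 and 0.36 TPM in YAPi_TAM (log2 change -3.85, SE 0.28, adjusted p = 1.7e-40). STC1, the secreted hormone stanniocalcin 1, was at 52.0 and 37.3 TPM against 3.93 and 2.39 TPM (log2 change -3.81, SE 0.17, adjusted p = 4.4e-110). RHOU, a small GTPase, was at 2.80 and 2.84 TPM against 0.31 and 0.27 TPM. TNFRSF6B, a decoy receptor for Fas ligand that was named after its values were seen because the ribosomal copies filled the ranking, fell from 396 and 523 TPM to 76.0 and 63.7 TPM (log2 change -2.75, SE 0.15). The joint gene RTEL1-TNFRSF6B is listed apart from it (log2 change -1.06), and the division of reads between these entries is uncertain. GLDC, STC1, RHOU and TNFRSF6B were likewise ranked among called genes without overlap between groups, so their separation is part of the choice. TMPRSS4, a membrane serine protease, fell by 3.52 but with a wider error (SE 0.92), its knockdown libraries standing at 2.07 and 0.34 TPM.

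The same knockdown under ethanol shows which of these changes were also seen without tamoxifen. Per the methods AZD0530 was given along with tamoxifen, so the parts of tamoxifen, Src activation and AZD0530 cannot be told apart here. YAPi_ETH and Ctrli_ETH share no library with the tamoxifen groups, and 1709 of 15005 genes (11.4%) were called between them, 5.03% higher and 6.36% lower. Of the 1552 genes called under tamoxifen 1516 were tested under ethanol, of which 1466 (96.7%) had the same sign and 961 were called in the same direction. The cornified envelope list had 11 of 15 tested genes higher under ethanol. Members near 0 in Ctrli_ETH could pass the filter on low counts only through YAPi_ETH, so this count too is a description. Mitosis had 26 of 34 genes lower under ethanol with a median of -0.74. Some other lists had unlike counts under the treatments. Of the 22 YAP/TAZ targets 3 rose and 2 fell under ethanol, with a median of 0.20 and 16 positive values. The difference of log2 changes was negative for all 22 (median -0.47), and it was called for 1. Of 25 cholesterol and fatty acid synthesis genes 12 fell and 1 rose under ethanol, whereas 2 rose and 2 fell under tamoxifen, and the difference was called for 4. On the list of the urokinase system and serpins 7 of 12 tested genes rose and none fell under ethanol, against 2 higher and 3 lower of 13 under tamoxifen, and the difference was called negative for 5. The difference between the treatments, tested as an interaction, was called for 78 of 15721 genes (0.496%), with 28 differences positive (0.178%) and 50 negative (0.318%). edgeR called 15, with 1 positive. Of the 78, 18 fell under tamoxifen without being called under ethanol, 18 rose under ethanol without being called under tamoxifen, 12 rose under tamoxifen without being called under ethanol and 9 fell under ethanol without being called under tamoxifen. Another 7 rose under both, 2 fell under both, 6 fell under tamoxifen and rose under ethanol, 1 did the reverse and 5 were called under neither.

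Several of the most strongly lowered genes belong to this set. RHOU was at 0.47 and 0.54 TPM in Ctrli_ETH and at 0.77 and 0.67 TPM in YAPi_ETH, and was not called there (difference of log2 changes -3.78, SE 0.43, adjusted p = 5.2e-15). LOX was at 4.00 and 3.09 TPM in Ctrli_ETH and at 2.39 and 2.10 TPM in YAPi_ETH (difference -2.0, SE 0.25). NDRG1 was at 26.7 and 26.5 TPM against 13.1 and 20.2 TPM under ethanol (difference -2.26, SE 0.22). Its ethanol log2 change from counts was 0.12, so the TPM and count scales part for it there. In these 3 genes Ctrli_TAM was the highest of the 4 groups. STC1 was at 0.17 TPM in both Ctrli_ETH libraries, where little room was left for a decrease (difference -2.64, SE 0.54, edgeR adjusted p = 0.20). TNC was at 0.35 and 0.61 TPM in Ctrli_ETH and at 0.54 and 4.32 TPM in YAPi_ETH, so its rise under ethanol rests on the second library. SERPINE2, a thrombin inhibitor, fell by 0.87 under tamoxifen and rose by 1.57 under ethanol. S100A8 rose under both but from 30.7 and 25.3 TPM to 505 and 397 TPM under ethanol, a larger relative change (difference -2.81, SE 0.18, adjusted p = 6e-52). In the other direction CD24 rose more under tamoxifen (difference 1.32, SE 0.17), where its control level was 12.1 and 10.8 TPM against 34.7 and 25.8 TPM in Ctrli_ETH. EHF (1.57), PPL (1.31) and XDH, xanthine dehydrogenase (2.19), also had more positive changes under tamoxifen by DESeq2. With edgeR the adjusted p of these differences was 0.0093 for CD24 but 0.028 for EHF, 0.026 for PPL and 0.022 for XDH, above the threshold.

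**Figure D4:**
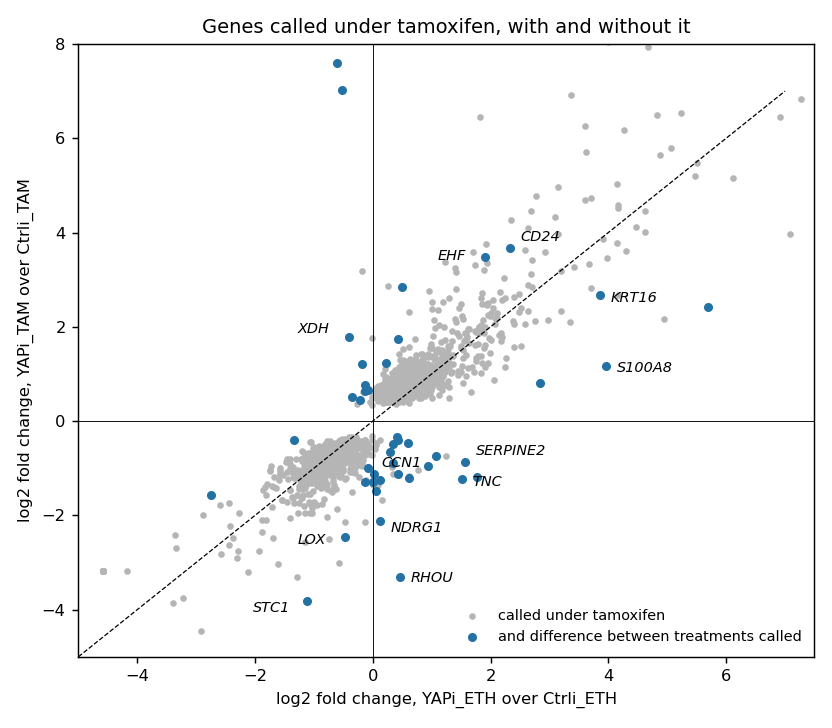
Log2 fold change of the YAP knockdown under tamoxifen (vertical axis) and under ethanol (horizontal axis) for genes called under tamoxifen and tested under ethanol; blue points are genes whose difference between treatments was called, and the dashed line marks equal change. Most points lie near the line, while RHOU, NDRG1, LOX and STC1 lie below it and XDH, EHF and CD24 above; 22 of the genes fall outside the axes.

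The direct comparison with the knockdown of the paralog asks which changes go with YAP rather than TAZ. TAZi_TAM lowered WWTR1 to 1.28 and 1.40 TPM and left YAP1 at 28.1 and 25.03 TPM. Ribosomal RNA took 0.249% and 0.0163% of its counts, so it too differed from YAPi_TAM, and its part in this comparison was not tested. Between YAPi_TAM and TAZi_TAM 923 of 14600 genes were called (6.32%), 531 higher (3.64%) and 392 lower (2.68%) in YAPi_TAM, whereas edgeR called 414. Cornified envelope genes were higher in YAPi_TAM in 13 of 16 tested, with a median difference of 4.21. Here too members near 0 in the other group passed the filter only through the YAP knockdown libraries, so this is a description. SPRR1B was at 0.34 and 0.98 TPM in TAZi_TAM (difference 5.18 on the log2 scale, SE 0.39, adjusted p = 8.2e-38), CLDN4 at 0.27 and 0.16 TPM (5.38), CEACAM6 at 0.08 and 0.04 TPM (6.06) and S100A7 at 8.33 and 10.4 TPM (5.16). SPRR1B, CLDN4, CEACAM6 and S100A7 were named for the largest positive differences of this comparison, so their low TAZi_TAM levels are part of the choice. Mitosis genes were lower in YAPi_TAM than in TAZi_TAM in 12 of 34 (median -0.53), and replication-dependent histones in 13 of 19 (median -0.58). COL5A3, a fibrillar collagen chain, was lower in YAPi_TAM by 4.18 (4.59 and 3.50 TPM in TAZi_TAM), IL33 by 3.72, GLDC by 3.23, BATF3 by 2.45 and RHOU by 2.43. These were named for the largest negative differences, so their higher TAZi_TAM levels are part of the choice. Against Ctrli_TAM the YAPi_TAM changes were -1.63 for COL5A3, -2.91 for IL33, -3.85 for GLDC, -3.02 for BATF3 and -3.30 for RHOU. For COL5A3 the difference from TAZi_TAM exceeded the fall from the control, so it does not measure the YAP knockdown alone. S100A8 and S100A9 were not called between the knockdowns (0.26, SE 0.12, and 0.19, SE 0.13). KRT14 was at 284 and 255 TPM in TAZi_TAM, above its level in YAPi_TAM by 1.65 on the log2 scale.

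**Figure D5:**
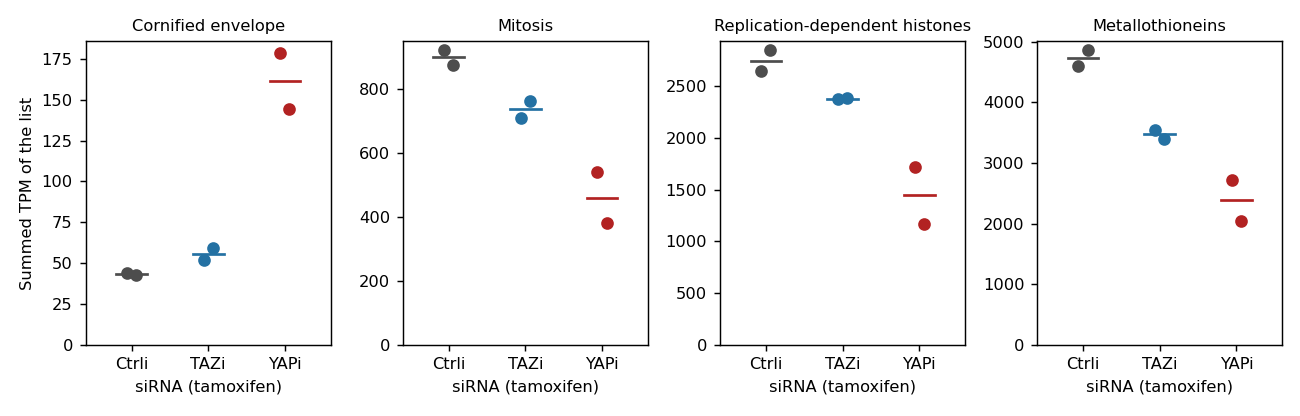
Summed TPM of 4 gene lists (vertical axes, from 0) in each library of Ctrli, TAZi and YAPi under tamoxifen; points are libraries and bars means. The cornified envelope sum is 144 and 179 TPM in YAPi against 42.6 to 59.0 TPM in the other groups, and the mitosis sum is lowest in YAPi.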

How the data were processed

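RNA was sequenced from MCF-10A ER-Src cells, and groups were taken from the sample titles. Per the study's methods, libraries were made with the TruSeq Ribo Profile kit, and reads were trimmed, aligned with STAR to the GENCODE version 30 transcriptome (up to 20 alignments kept) and quantified with RSEM. Tool versions are not given in the sources used here. The authors deposited expected counts, which are estimates of reads per gene and are not normalized, and TPM, scaled for effective length and depth by RSEM. Effective lengths, also deposited, served 1 alternative.

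Of 60725 Ensembl genes 93.1% matched GENCODE version 44 (GRCh38), which gave symbols and coordinates; 649 numeric identifiers and 97 spike-in or phage identifiers were left out. Expected counts were rounded. Each contrast was a separate DESeq2 fit (1.42.0, R 4.3.3) of its own groups, after the study's methods, called at a Benjamini-Hochberg adjusted p under 0.01; the treatment difference was an interaction term over 4 groups. "Tested" means that DESeq2 gave an adjusted p. Log2 changes are not shrunken. Alternatives were edgeR 4.0.16 (quasi-likelihood), TMM size factors, a mean count of at least 10, effective length offsets, 1 fit over all ER-Src groups, the replicate number as a block and leaving out each library; the fit without ribosomal RNA and the ethanol alternatives were added after seeing the data. The fits were tested on simulated data. Depth was 6419720 to 17468587 expected counts in the 4 libraries. Bounds against 0 use 3 counts over the group, and 95% counting intervals are exact binomial (Clopper-Pearson) and cover counting error only.

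Genes were named by rule: YAP1 and WWTR1, the 12 that rose and 12 that fell most (mean normalized count of at least 100, called, groups not overlapping), the 6 most abundant called with a log2 change of at least 1, the first 2 and up to 5 called members in each direction of 50 lists, and the 5 largest differences in each direction in the other contrasts. CD14, CD68, CSTA, PPL, SBSN, SPRR3, PLK1, S100A9, IL6 and MOB1B were named after their values were seen. Some genes that the rule names are not reported here. The members and lists were chosen with earlier results of these data known. Promoters and the motif windows of 250 bases come from RefSeq.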

Additional observations from a re-analysis of the deposited data

Results flagged for a closer look

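The effect of the YAP knockdown differed between tamoxifen and ethanol for 78 genes by the interaction test (DESeq2 adjusted p under 0.01), and those reported among the genes named by rule are given here as differences of log2 changes, tamoxifen minus ethanol. Among matrix, protease and serpin genes TNC was at -2.73, LOX at -2.0, SERPINE2 at -2.46, SERPINB1 at -1.18, PLAU at -1.25, TIMP1 at -0.76 and the integrin ITGA5 at -0.83. Among secreted and signalling genes STC1 was at -2.64, RHOU at -3.78, NDRG1 at -2.26, CCN1 at -1.31, IL1RAP at -0.93 and ENTPD3, a surface nucleotidase, at -3.28. Among epithelial genes S100A8 was at -2.81, KRT16 at -1.19, KRT81 at 0.93, EHF at 1.57 and CD24 at 1.32. LSS, a cholesterol synthesis enzyme, was at 0.87 and XDH at 2.19.

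Some flagged features cannot be separated from neighbours or copies. NME1-NME2 (1.72) overlaps NME1 and NME2, and RPL39P3 (2.10) and ENSG00000219928 (3.13) are pseudogenes. ENSG00000263900.1 (2.33) had no match in the annotation used. ENSG00000269968, antisense to GAPDH, and ENSG00000258232, antisense to TUBA1C, had 3 or fewer counts in Ctrli_ETH but at least 4789 and 1410 in each YAPi_ETH library; the strand handling of the counts is not stated, so they cannot be told apart from the genes they overlap.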

How the results depend on the processing

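All 233 named genes called between YAPi_TAM and Ctrli_TAM kept their direction under each alternative that gave them a value. They stayed called in 226 cases with TMM size factors, 229 with a mean count of at least 10, 196 in 1 fit over all ER-Src groups, 194 with effective length offsets, 187 with edgeR and 120 to 163 with 1 library left out; where an arm was left with 1 library, that library is assumed to vary like the rest. The count of calls over all genes ran from 431 (without YAPi_TAM replicate 2) to 814 (without YAPi_TAM replicate 1), and 305 of the 1552 genes were called in all 4 of these fits. Leaving out 1 library gave 48 to 79 calls for the treatment difference, 231 to 699 for YAPi_TAM against TAZi_TAM and 491 to 974 under ethanol. edgeR called 15 treatment differences against 78 and 414 genes between YAPi_TAM and TAZi_TAM against 923, and the cause was not tested. Of the edgeR treatment differences 6.67% were positive, against 35.9% with DESeq2.

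Replicate numbers are shared between groups in the titles, but with 2 pairs they were not taken as pairing the samples. The deviations of replicate 1 from its group mean correlated at 0.0507 over genes between YAPi_TAM and Ctrli_TAM and at 0.286 between YAPi_TAM and TAZi_TAM. In the fit over both treatments the 6 pairs of groups correlated at 0.0766 to 0.405, the highest between YAPi_TAM and YAPi_ETH. In fits with a replicate block the calls numbered 775 for YAPi_TAM against Ctrli_TAM, 602 for YAPi_TAM against TAZi_TAM, 1123 under ethanol and 98 for the treatment difference, and 166 of the 233 named genes stayed called. Precision is limited by 2 libraries a group and by the 6419720 counts of the shallower control.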

Other observations

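Some groups outside the main account had small or mixed counts in YAPi_TAM against Ctrli_TAM, where 5.4% of all genes tested were called higher and 5.54% lower. Of 28 tested interferon-stimulated genes 6 rose, among them IFI27 (log2 change 2.30) and OAS1 (1.30), and UBE2L6 fell by 0.80; 1 or 2 of the list were called in each fit without 1 library. Of 22 tested cytosolic ribosomal protein genes 5 fell and none rose, with RPL3 at -0.82 and RPS2 at -0.76, and 3 to 5 of the list were called without 1 library. Of 25 tested genes of the ATF4 and unfolded protein list 3 rose and 5 fell, with 3 to 6 called without 1 library. The serine and one-carbon enzymes among those that fell were PHGDH at -1.56, SHMT2 at -1.16 and MTHFD2 at -0.45, and SESN2 rose by 0.82 and DNAJB9 by 1.09. FASN, fatty acid synthase, fell by 0.95 and INSIG1 by 0.78, and MSMO1 rose by 0.57. ID3, an inhibitor of bHLH factors, rose by 1.55, INHBA, an activin subunit, fell by 1.68, and HES2 was the only called gene of 13 tested on the Notch list, at 2.33, a share below the 10.9% called over all genes. The cytochrome oxidase genes MT-CO1 and MT-CO3 rose by 0.61 and 0.57 while MT-ND1 was at -0.09 (SE 0.23).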
